A study of Drosophila melanogaster with 36 samples.

Results

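The mRNAs described here encode the proteins of the cytosolic ribosome of Drosophila melanogaster. A gene was a member when its FlyBase symbol began with RpL (large subunit) or RpS (small subunit), which gave 92 genes, 54 of the large and 38 of the small subunit. The tables listed 85 of them at 0-1h, 85 at 1-2h and 89 at 2-3h, of 7746, 8723 and 10091 genes listed in all at those times. RpL10Aa, RpS28a and RpS28-like were listed at no time, and RpL22-like, RpL37-2, RpS10a and RpS19b were listed only at 2-3h. Since a gene had to be above 0 in each of the 12 libraries of a time to be listed, a member outside a table is not thereby silent.

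RNA came from whole embryos of 3 collections after egg lay, 0-1h, 1-2h and 2-3h, lysed with cycloheximide and heparin. Wild-type embryos were w1118, the stock before injection, and orb2-delta-zz embryos lacked the ZZ domain, a zinc-binding part of the CPEB-family RNA-binding protein ORB2; the labels do not say how many lines were made. Each lysate ran on a sucrose gradient of 15% to 45%, from which pools 1 and 3 were sequenced once ribosomal RNA had been depleted. The 12 groups (genotype, time and pool) had 3 replicates each, 36 libraries from 18 gradients, and the labels leave unsaid where on the gradient a pool lies and whether replicates came from separate cultures, so p-values measure the spread between these libraries only.

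Ribosomal protein mRNAs are short and among the most abundant of the cell, and in animals most begin with a 5′ terminal oligopyrimidine tract, through which their translation follows growth signals. The egg receives ribosomes and these mRNAs from the mother, and in flies the mRNAs have long been known to be largely kept off polysomes in the first hours of embryogenesis. RpLP0, RpLP1 and RpLP2 form the stalk of the large subunit, which recruits translation factors, and several other members have a second gene whose product stands in for the usual one or acts in ribosome assembly.

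By the annotation (Ensembl release 115, BDGP6) the members lie on every major chromosome arm: 14 on X, 19 on 2L, 21 on 2R, 14 on 3L, 23 on 3R and 1 on chromosome 4. Their median coding length was 466.5 nt, from 75 nt in RpL41 to 1248 nt in RpL3, against 1428 nt over the 9474 protein-coding genes listed. Their 5′ untranslated regions were short as well, with a median of 84.5 nt against 161 nt. Introns or other parts of 28 members hold 74 annotated snoRNA genes, which guide the modification of ribosomal RNA.

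The deposited normalized counts of a library summed to between 2.16e+07 and 4.73e+07. Markers of the egg shell (0 of 9 listed) were absent from the tables. Those of fat body (1, 0 and 3 of 5 listed at the 3 times) and of the male germ line (0, 0 and 2 of 6) summed to at most 1.10 and 0.501 TPM. A marker at 0 in any library of a time is not listed, so RNA of these tissues in single libraries could go unseen. The markers of older embryos (3, 5 and 6 of 8 listed at the 3 times) stood apart in 5 gradients. In pool 3 they summed to 569 TPM in orb2-delta-zz 0-1h replicate 1, where the other 0-1h libraries held 2.06 to 26.6. They summed to 611 TPM in wild-type 1-2h replicate 2 and 279 in orb2-delta-zz 1-2h replicate 3, beside 12.1 to 77.7 in the others, and to 1083 and 955 in 2-3h replicate 2 of wild type and orb2-delta-zz, beside 107 to 389. Calls that changed without these 5 gradients are given beside the results they touch.

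Ribosomal protein mRNAs made up a large share of pool 1 and a small share of pool 3. In wild-type pool 1 they took 36.2%, 38.1% and 37.6% of all TPM (the authors' length-corrected abundance) in the 3 replicates at 0-1h. The share was 44.7%, 48.2% and 46.8% at 1-2h, and 56.5%, 54.7% and 55.6% at 2-3h, with no overlap between the times. In wild-type pool 3 it was 9.25% ± 0.94 (SD, n = 3) at 0-1h, 8.24% ± 1.03 at 1-2h and 10.8% ± 0.64 at 2-3h. The orb2-delta-zz libraries ranked likewise, with 40.1% ± 1.38, 48.3% ± 2.16 and 54.8% ± 2.39 in pool 1 and 9.80% ± 0.32, 8.62% ± 0.47 and 10.3% ± 0.11 in pool 3. Every pool 1 library (36.2% or more) lay above every pool 3 library (11.5% or less).

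The members filled the top of pool 1. Of the 100 genes with the highest TPM, 67 to 75 were members in the pool 1 libraries and 30 to 40 in the pool 3 libraries. Large-subunit mRNAs together held 1.53 to 1.74 times the TPM of small-subunit mRNAs in pool 1 and 1.43 to 1.50 times in pool 3. Small nuclear and nucleolar RNAs also differed between the pools, with 6.21% to 20.9% of TPM in pool 1 and 0.678% to 1.39% in pool 3. Taken over protein-coding genes only, the members' share was 40.6% to 76.0% in pool 1 and 7.28% to 11.9% in pool 3.

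**Figure D1:**
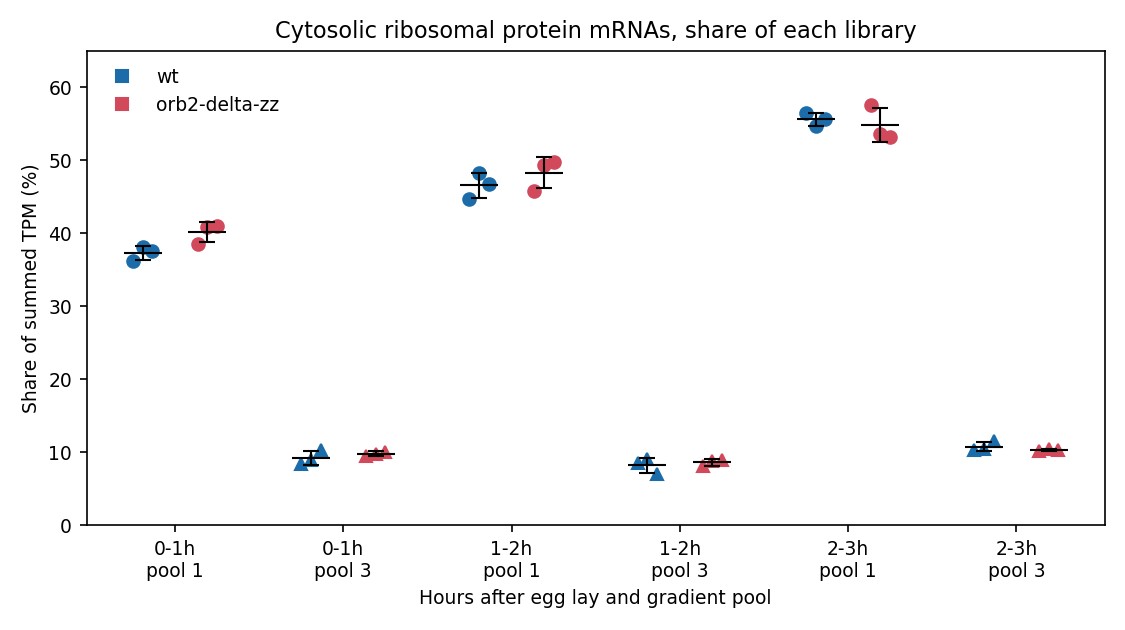
Share of all TPM held by ribosomal protein mRNAs, in percent (vertical axis), in each of the 36 libraries, by time, pool and genotype; points are libraries, bars the mean and SD of 3. Pool 1 rises from 36.2% to 57.6% across the times while pool 3 stays between 7.09% and 11.5%.

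The level of 1 member differed widely from that of another, although the ribosome takes 1 copy of nearly each protein. In wild-type pool 1 at 0-1h the highest was RpL41, which encodes the shortest ribosomal protein, with 17829, 30274 and 32747 TPM. Its rank among all listed genes was 3. RpL32 followed with 9753 ± 1404 TPM and RpL29 with 9431 ± 1216, ranges that overlap, and the median was 3922 ± 135 for large-subunit and 4336 ± 121 for small-subunit members.

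Among members described for their role, RpLP1 stood at 5341 ± 265 TPM and RpLP0 at 3749 ± 453, above RpLP2 at 2955 ± 17.3. RpS27A (4908 ± 126) and RpL40 (4305 ± 299), each made as a fusion with ubiquitin, lay near the median. So did RpS6 (3422 ± 399), the target of the S6 kinase, and RpS3 (3343 ± 309), a protein at the mRNA entry site. RpL3, at the core of the large subunit, was lower at 1910 ± 621.

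The lowest members of that group were RpS15Ab at 15.6 ± 0.69 TPM, RpLP0-like at 29.4 ± 6.56 and RpL24-like at 212 ± 28.7. In pool 3 at 0-1h the order was RpL41 (2262 ± 421 TPM), RpL36A (2136 ± 154) and RpS7 (2029 ± 229) at the top, with overlapping ranges. RpLP0-like (79.6 ± 3.24 TPM), RpS15Ab (96.4 ± 16.8) and RpL34a (140 ± 13.7) were lowest there. The members listed only at 2-3h were near 0 in wild-type pool 1, with 1.49 ± 1.02 TPM for RpL37-2, 1.16 ± 0.29 for RpS19b, 0.304 ± 0.104 for RpS10a and 0.213 ± 0.068 for RpL22-like. RpL22-like and RpS19b are best known from the germ line.

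The difference between pools was tested on log2(normalized count + 1) of all genes with a mean of at least 10 (limma, Benjamini-Hochberg adjusted p under 0.05, two-sided), and each value is pool 3 minus pool 1. The authors' scaling sets the middle of all genes near 0 in this difference, so a value says where an mRNA lies relative to other mRNAs, not its absolute amount in a pool. The libraries are of bulk embryos, so which embryos or parts of them held an mRNA cannot be told.

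Nearly all members were lower in pool 3 than in pool 1. In wild type 83 of 85 tested members were lower at 0-1h, 83 of 85 at 1-2h and 84 of 87 at 2-3h, and the same counts were found in orb2-delta-zz (85 of 87 at 2-3h with the gradient as a block, which added RpL37-2). Of all genes tested in wild type, 40.6%, 37.0% and 27.1% were lower and 39.8%, 37.0% and 29.3% higher. In orb2-delta-zz 39.9%, 37.6% and 30.1% were lower and 40.6%, 36.9% and 29.9% higher. The median member difference in wild type was -3.15 at 0-1h, -4.05 at 1-2h and -4.56 at 2-3h on the log2 scale, where the median of all genes was 0.01, 0.07 and -0.07. In orb2-delta-zz the medians were -3.16, -4.04 and -4.70.

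The difference was seen in each gradient taken alone. The median member ratio was -2.81 to -3.37 in the 6 gradients at 0-1h, -3.72 to -4.20 at 1-2h and -4.26 to -4.89 at 2-3h, without overlap on this scale. By TPM it was -1.65 to -1.97, -2.14 to -2.43 and -1.95 to -2.31, where 1-2h and 2-3h overlap. In the wild-type fit on log2(TPM + 1) the member medians were -1.82, -2.25 and -2.10, and -3.01, -3.81 and -4.24 relative to the median of all genes. Between 21 and 38 members were among the 100 lowest genes of a gradient. Large- and small-subunit members lay close together, with wild-type medians of -3.21 and -3.07 at 0-1h, -3.96 and -4.13 at 1-2h, and -4.54 and -4.56 at 2-3h.

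RpL30, a large-subunit protein that in yeast also binds its own pre-mRNA, had the lowest mean ratio over the 9 wild-type gradients, -5.88, with a range of -6.66 to -4.34. It lies on 2L from 19008031 to 19009306, minus strand. In wild-type pool 1 it had 63454, 144334 and 173800 normalized counts at 0-1h, and in pool 3 of the same gradients 3142, 3179 and 3641. At 2-3h it had 392008, 292235 and 303301 in pool 1 and 3864, 3515 and 5208 in pool 3. The pools were far apart in every gradient, with a log2 difference of -5.14 ± 0.35 (SE, adjusted p = 1.0e-07), a 35.2-fold lower level in pool 3, at 0-1h, -6.20 ± 0.16 (8.9e-13) at 1-2h and -6.30 ± 0.19 (7.2e-11) at 2-3h.

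RpL41 (-4.87 ± 0.41 at 0-1h, -5.65 ± 0.20 at 1-2h) and RpL32 (-5.69 at 1-2h) were the next lowest by their mean over the 9 gradients, at -5.45 and -5.40. Other members at the low end were RpS29 at 0-1h (-4.77) and RpS20 (-6.30) and RpL28 (-5.97) at 2-3h. In orb2-delta-zz the lowest were RpL30 (-5.27, -6.25 and -6.41 at the 3 times), RpL32 (-5.24, -6.02 and -6.22), RpL41 at 0-1h (-5.05) and RpL37A at 1-2h and 2-3h (-5.81 and -6.25).

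Members with named roles fell along this range at all times. At 0-1h, 1-2h and 2-3h in wild type the difference was -2.55, -3.61 and -4.38 for RpS6 and -2.46, -3.86 and -4.74 for RpS3. It was -3.65, -4.77 and -5.09 for RpS27A and -2.56, -4.23 and -4.84 for RpL40. For the stalk proteins it was -3.34, -4.04 and -4.95 (RpLP0), -3.33, -4.57 and -5.65 (RpLP1) and -3.56, -4.32 and -4.92 (RpLP2). RpL3, the longest coding sequence among the members, was among the least lowered at -1.67 ± 0.12, -1.91 ± 0.20 and -2.32 ± 0.21, all past the test; on log2(TPM + 1) it missed the test at 0-1h (-0.35) and 1-2h (-0.11) and turned to 0.14 at 2-3h.

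Coding length ran with the ratio among members and outside them. Transcript length followed the ratio less closely among members, with Spearman correlations of 0.34, 0.39 and 0.26 at the 3 times in wild type. Coding length and pool difference in wild type had a Spearman correlation across members of 0.54 at 0-1h (n = 85), 0.54 at 1-2h (n = 85) and 0.41 at 2-3h (n = 87). Across the other coding genes it was 0.57 (n = 7115), 0.46 (n = 7784) and 0.35 (n = 8867); genes share the libraries and are not independent. Other coding genes of 381 to 648.75 nt, the middle of the members' lengths, had a median difference of -0.65 at 0-1h (755 genes), -0.50 at 1-2h (796) and -0.28 at 2-3h (903). The 43, 43 and 44 members of that length had medians of -3.15, -4.14 and -4.52.

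Other groups of the translation machinery had medians nearer to 0, and these lists were put together with results of these data known. Of 71 mitochondrial ribosomal proteins in wild type, 68 were lower and 2 higher in pool 3 at 0-1h (median -1.54), 57 and 3 at 1-2h (-1.29), and 26 and 14 at 2-3h (-0.29). Of 36 cytosolic translation factors, 27 were lower and 7 higher at 0-1h and at 1-2h, and 25 and 7 at 2-3h, with medians of -0.90, -1.38 and -1.80. Of 26 ribosome biogenesis factors, which assemble the subunits, 11 were lower and 10 higher at 0-1h, 9 and 12 at 1-2h, and 5 and 15 at 2-3h (medians -0.11, -0.06 and 0.89).

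Of 7 regulators of ribosomal protein synthesis (raptor, S6k, Thor, M1BP, Dref, Trf2 and Myc), 6, 5 and 5 were higher in pool 3 at the 3 times and 1 lower, with medians of 3.56, 4.16 and 2.43. Larp, larp4B and Tor of that list were left out, as their symbols were not in the annotation. CG4038, CG7637 and nmd3 were left out of the biogenesis list likewise. The mRNAs of sta and Rack1, small-subunit proteins whose symbols fall outside the rule, were both lower at every time, with medians of -2.18, -3.23 and -4.14.

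Among the members tested, RpS15Ab and RpLP0-like, each with a more abundant paralog, were the ones called higher in pool 3. RpS10a, below the minimum for the test, had ratios of 0.43, -0.41 and 0.51 in wild type at 2-3h. RpS15Ab (FBgn0033555, on 2R) is a second gene for a small-subunit protein. In wild type it had 288, 418 and 494 normalized counts in pool 1 at 0-1h and 1126, 819 and 937 in pool 3. At 2-3h it had 592, 401 and 424 in pool 1 and 1243, 988 and 1273 in pool 3. Pool 3 was above pool 1 in 18 of 18 gradients, by 1.28 ± 0.19 (adjusted p = 5.0e-05), 1.31 ± 0.21 (4.3e-05) and 1.32 ± 0.19 (7.8e-05) in wild type at the 3 times, and by 1.29, 0.98 and 0.62 ± 0.19 (0.014) in orb2-delta-zz.

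RpLP0-like (FBgn0033485, on 2R) encodes a relative of the stalk protein RpLP0 whose yeast counterpart, Mrt4, acts in assembly of the large subunit. In wild type at 0-1h it had 923, 1077 and 1119 normalized counts in pool 1 and 1100, 1104 and 1201 in pool 3, which overlap, and the difference of 0.13 ± 0.11 missed the test (adjusted p = 0.28; -0.04 and 0.75 in orb2-delta-zz). At 1-2h it had 497, 343 and 627 in pool 1 and 1362, 1219 and 1456 in pool 3, with no overlap. It was then higher in pool 3 by 1.50 ± 0.21 (1.5e-05) at 1-2h and 0.99 ± 0.21 (0.0016) at 2-3h in wild type, and by 1.29 and 1.07 in orb2-delta-zz.

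The other assembly-factor relatives differed between themselves. RpL24-like, whose yeast counterpart Rlp24 binds early large-subunit precursors, was little lowered, by -0.72, -1.22 and -1.59 in wild type. By TPM it was higher in pool 3, with 245, 198 and 193 TPM in pool 1 and 335, 312 and 315 in pool 3 at 0-1h. RpL7-like, counterpart of yeast Rlp7, another assembly factor, was lowered as RpL7 was at 0-1h (-2.63 against -2.75) and less at 2-3h (-3.36 against -4.65). At 2-3h RpL37-2 missed the test in both genotypes (-0.78 ± 0.63, adjusted p = 0.32, and -1.31, 0.088), and RpS19b was lower by -1.83 ± 0.40 in wild type, a direction that turned on log2(TPM + 1).

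Paralog pairs changed their make-up between the pools. Each gene's share of its family's TPM was computed per library, and Salmon divides reads of near-identical copies by estimate, so the split within a pair is uncertain where the copies are alike. RpLP0-like made up 0.773% ± 0.076 of the RpLP0 family in wild-type pool 1 at 0-1h and 7.95% ± 0.78 in pool 3. At 2-3h it was 0.287% ± 0.052 in pool 1 and 14.9% ± 0.75 in pool 3. RpS15Ab likewise made up 0.712% ± 0.017 of its family at 0-1h in pool 1 and 12.7% ± 3.33 in pool 3. At 2-3h its shares were 0.463% ± 0.017 and 16.8% ± 0.95.

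RpL24-like made up 4.67% ± 0.88 of its family at 0-1h in pool 1 and 27.4% ± 2.9 in pool 3, and 3.93% and 33.0% ± 1.6 at 2-3h. RpL7-like held 7.84% and 8.42% ± 0.20 at 0-1h, close together, and 7.22% and 15.9% ± 1.1 at 2-3h. RpL34a, the rarer of its pair, held 23.0% ± 1.1 in pool 1 and 17.6% ± 0.40 in pool 3 at 0-1h. At 2-3h the order was turned, with 12.0% ± 0.60 in pool 1 and 24.1% ± 1.3 in pool 3. The orb2-delta-zz shares in pool 3 at 2-3h were 15.0% for RpLP0-like, 17.5% for RpS15Ab, 32.5% for RpL24-like and 16.2% for RpL7-like.

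In other pairs both genes were well represented in both pools. RpS5b, a paralog enriched in the ovary, held 68.6% ± 0.42 of its family in pool 1 at 0-1h and 68.7% at 2-3h, and 63.8% and 58.7% ± 2.7 in pool 3, without overlap between the pools. RpS14a, next to RpS14b on X (7933742 to 7934677 and 7934898 to 7935792, both plus strand), held 62.5% ± 1.4 and 69.1% ± 0.76 in pool 1 and 64.5% and 63.5% in pool 3. At 0-1h and 2-3h the pools did not overlap, but pool 3 was higher at 0-1h and lower at 2-3h. At 1-2h they overlapped, with 65.1% to 69.5% in pool 1 and 63.4% to 66.6% in pool 3. The orb2-delta-zz pools overlapped at 2-3h. RpL37-2, RpL22-like, RpS10a and RpS19b each made up a mean of at most 0.282% of their families at 2-3h in wild type. RpL10Ab and RpS28b were the only genes of their families in the tables.

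**Figure D2:**
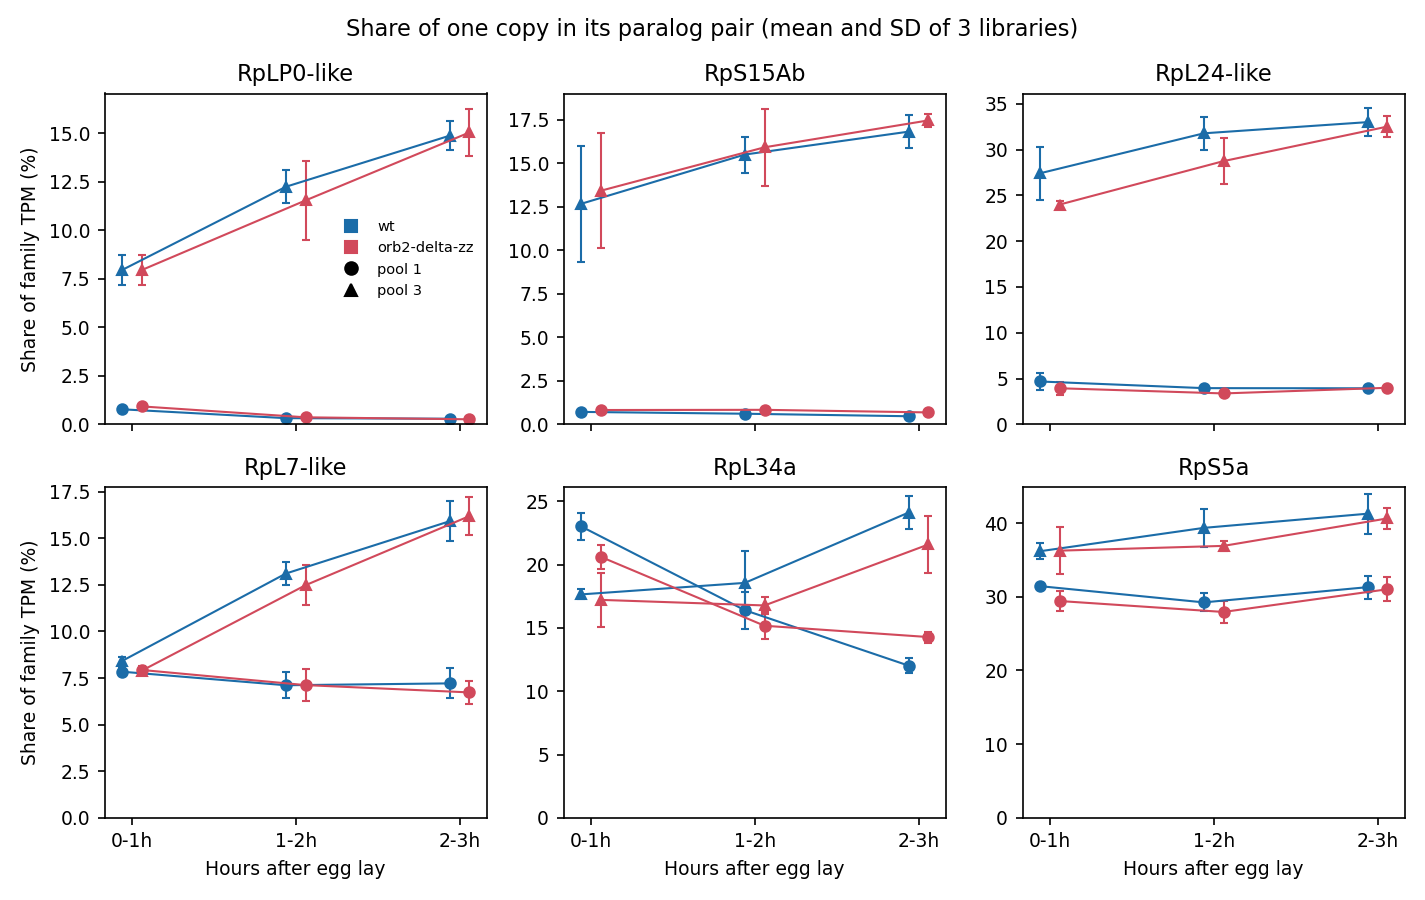
Share of the family's TPM, in percent (vertical axis), held by RpLP0-like, RpS15Ab, RpL24-like, RpL7-like, RpL34a and RpS5a, by time, pool and genotype; points are means of 3 libraries and bars the SD. RpLP0-like in wild-type pool 3 goes from 7.95% to 14.9% and in pool 1 from 0.773% to 0.287%.

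Loss of the ZZ domain was compared with wild type in each pool and time, as orb2-delta-zz minus wild type. The main fit used 12 libraries per time, genes with a mean of at least 10, log2(normalized count + 1) and no replicate block. In that fit RpLP2 was the only member past the test in any of these 6 comparisons. It was higher at 1-2h and 2-3h in both pools, so 1 of 85 members was called in each pool at 1-2h and 1 of 87 at 2-3h, against 11.4% and 8.57% of all genes in pools 1 and 3 at 1-2h and 23.9% and 14.7% at 2-3h. At 0-1h limma called 0 of 85 members in either pool (unadjusted p under 0.05 for 4 and 2), against 10% and 7.58% of all genes. With the replicate number as a block, pools 1 and 3 had 4 and 3 members called at 0-1h, all higher, and 5 each at 2-3h (2 and 1 higher, 3 and 4 lower). In pool 1 libraries of the same number deviated together at these 2 times. Without the gradients high in older-embryo markers, 4 were called in pool 1 at 0-1h and 2 in pool 1 at 2-3h, and without wild-type replicate 2 alone 4 were called in each pool at 2-3h. In pool 3 at 2-3h 0 were called without wild-type replicate 1, orb2-delta-zz replicate 1 or orb2-delta-zz replicate 3. The shares of all genes called in these alternative fits are not given, so whether members were called more or less often there cannot be told.

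RpLP2 (FBgn0003274, on 2R, plus strand) encodes 1 of the acidic stalk proteins. At 1-2h in pool 1 it had 67084, 74353 and 54351 normalized counts in wild type and 171347, 176448 and 221952 in orb2-delta-zz. At 2-3h it had 126359, 95363 and 91766 in wild type and 293943, 291898 and 294226 in orb2-delta-zz. The genotypes did not overlap, and RpLP2 was higher by 1.54 ± 0.16 (2.91-fold, adjusted p = 3.5e-05) at 1-2h and 1.50 ± 0.15 (2.84-fold, 1.3e-04) at 2-3h.

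In pool 3 RpLP2 was lower in count but moved the same way. At 1-2h it had 3824, 3095 and 2853 normalized counts in wild type and 5842, 5772 and 5957 in orb2-delta-zz, and at 2-3h 3354, 3181 and 3748 against 5453, 4728 and 5745, again without overlap. The difference was 0.86 ± 0.16 (1.81-fold, adjusted p = 0.0037) at 1-2h and 0.63 ± 0.15 (1.55-fold, 0.019) at 2-3h. With 1 gradient left out the call in pool 1 held in 6 of 6 fits at both times. In pool 3 at 2-3h it was lost without wild-type replicate 1 (0.62), orb2-delta-zz replicate 1 (0.61) or orb2-delta-zz replicate 3 (0.57).

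At 0-1h RpLP2 pointed the same way but missed the test in the main fit. In pool 1 it had 39183, 61906 and 73062 normalized counts in wild type and 69996, 122344 and 112548 in orb2-delta-zz, which overlap, a difference of 0.81 ± 0.29 (adjusted p = 0.11). In pool 3 it had 3462, 4750 and 6570 against 6713, 7945 and 8930, with no overlap, a difference of 0.71 ± 0.29 (0.23). With the block these were 0.81 ± 0.13 (adjusted p = 0.0038) and 0.71 ± 0.13 (0.0090). Taken across genes, same-numbered libraries of the genotypes did not deviate together in pool 3 at 0-1h (correlations of -0.094, -0.059 and 0.011). The RpLP2 counts of that pool did rise with the replicate number in both genotypes. By TPM the pool 1 libraries did not overlap, with 2938, 2954 and 2972 in wild type and 4456, 5045 and 4787 in orb2-delta-zz; on that scale the difference was 0.69 (adjusted p = 0.052) in pool 1 and 0.70 (0.035) in pool 3. Without the orb2-delta-zz 0-1h gradient high in older-embryo markers, the pool 1 difference was 1.06 (0.045).

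The other stalk mRNAs did not follow RpLP2 past the test. At 0-1h, 1-2h and 2-3h in pool 1 the genotype difference was 0.12, 0.15 and 0.14 for RpLP0 and 0.29, 0.08 and -0.17 for RpLP1, with adjusted p from 0.41 to 0.79. In pool 3 it was 0.20, 0.27 and 0.06 for RpLP0 and 0.20, 0.17 and 0.06 for RpLP1. The SE of these values was 0.13 to 0.25.

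**Figure D3:**
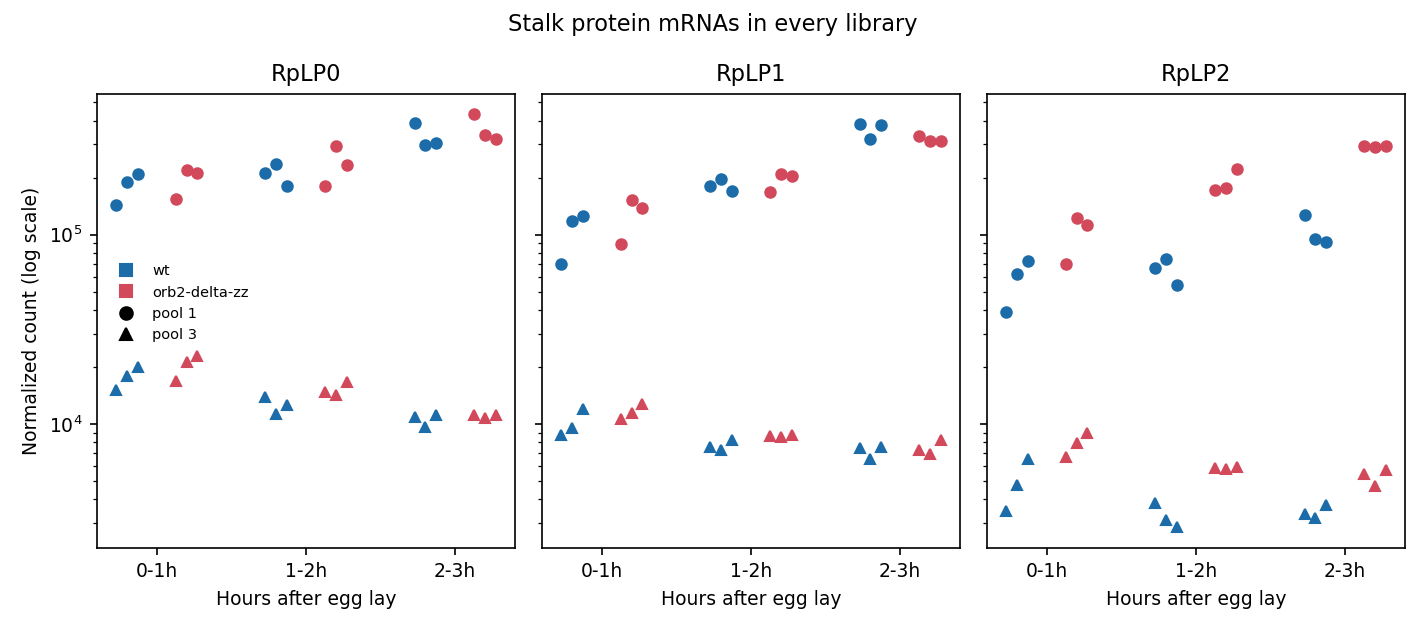
Normalized counts (vertical axis, log scale) of the stalk mRNAs RpLP0, RpLP1 and RpLP2 in each library by time and genotype, circles pool 1 and triangles pool 3. At 2-3h RpLP2 sits at 291898 to 294226 in orb2-delta-zz pool 1 and at 91766 to 126359 in wild type, while RpLP0 and RpLP1 of the genotypes lie close together.

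Over all members the median difference between genotypes in pools 1 and 3 was 0.20 and 0.10 at 0-1h (0.02 and 0.03 over all genes), 0.11 and 0.10 at 1-2h (0.11 and 0.07), and 0.03 and -0.13 at 2-3h (-0.03 and 0.01). At 0-1h 75 of 85 members lay above 0 in each pool, where 4001 and 4368 of all 7533 genes did. In pool 3 at 2-3h 80 of 87 lay below 0, beside 4726 of 9554. These counts rest on small medians that moved with single gradients: at 0-1h the pool 1 median was -0.04 without wild-type replicate 1 and 0.39 without orb2-delta-zz replicate 1, and that of pool 3 was 0.03 to 0.18. At 2-3h the pool 3 median ran from -0.23 without wild-type replicate 2 to -0.04 without wild-type replicate 3. Leaving RpLP2 out, single members ranged from -0.35 (RpL31) to 0.55 (RpL37A) in pool 1 at 0-1h and from -1.02 (RpL37-2, one of the rarest) to 0.18 (RpS26) in pool 3 at 2-3h.

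Markers of embryo stage also differed between the genotypes. The summed TPM of 8 early zygotic genes was lower in orb2-delta-zz, without overlap, at every time and in both pools. In pool 1 it was 144 to 163 in wild type and 46.9 to 72.6 in orb2-delta-zz at 0-1h, and 2512 to 2689 against 956 to 1396 at 2-3h. The summed TPM of 7 listed maternal genes at 2-3h in pool 1 was 141 to 274 in wild type and 331 to 666 in orb2-delta-zz. At 0-1h and 1-2h the maternal sums of the genotypes overlapped in both pools. In pool 1 at 0-1h they were 1144 to 2239 in wild type and 1275 to 1796 in orb2-delta-zz. The part of embryo stage in the RpLP2 difference was not tested.

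Whether the genotype changed the pool difference itself was tested as an interaction. No member passed at 0-1h, 1-2h or 2-3h in limma (0 of 85, 85 and 87; unadjusted p under 0.05 for 1, 3 and 3), where 0.518%, 0.482% and 0.136% of all genes were called. The median interaction was -0.07, 0.00 and -0.19 among members and 0.03, -0.03 and 0.03 over all genes. RpLP2 had -0.10 ± 0.41 (adjusted p = 0.99) at 0-1h, -0.69 ± 0.23 (0.40) at 1-2h and -0.87 ± 0.22 (0.14) at 2-3h. With the gradient as a block, since both pools come from 1 gradient, the 2-3h value of RpLP2 was -0.87 ± 0.19 and passed (0.033), and on log2(TPM + 1) it was -0.79 (0.015); its genotype difference was thus larger in pool 1 than in pool 3 under those fits.

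The change with time was tested on log2(TPM + 1), 2-3h minus 0-1h, over 7294 genes (listed at every time, mean TPM 1 or more). TPM is scaled to a fixed total per library, so a rise or fall here is a change of share within a pool, not of absolute amount. Most ribosomal protein mRNAs rose in pool 1, while most mRNAs there fell. In wild-type pool 1, 53 of 85 members rose and 8 fell, with a median of 0.39, where 15.3% of all genes rose and 69.8% fell with a median of -1.36. In orb2-delta-zz pool 1, 58 rose and 1 fell (median 0.40), where 14.1% of all genes rose and 66.1% fell.

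In pool 3 the members moved less. In wild type 31 of 85 rose and 1 fell (median 0.19), against 23.3% and 45.4% of all genes (median -0.29). In orb2-delta-zz 23 rose and 3 fell (median 0.06), against 26.3% and 37.3% of all genes (median -0.08). Without the gradients high in older-embryo markers 12 rose and 2 fell in the last comparison, and 12 to 30 were called with 1 gradient left out, fewest without orb2-delta-zz 0-1h replicate 2. Under a median-of-ratios scaling, which moves the median of all genes by 1.51 and 0.41 in wild-type pools 1 and 3 and by 1.29 and 0.25 in orb2-delta-zz, 84, 73, 84 and 33 members rose and 0 fell. Relative to the median of all genes the members stood at 1.75 and 0.48 in the wild-type pools and at 1.95 and 0.51 under that scaling.

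The largest rises in wild-type pool 1 were in mRNAs for proteins of both subunits. RpL36 had 3817, 4902 and 4417 TPM at 0-1h, 8531, 9598 and 11891 at 1-2h, and 12490, 13108 and 17732 at 2-3h. Its levels did not overlap between the times, and the difference was 1.71 ± 0.16 (3.27-fold, adjusted p = 1.9e-11). RpS20, a protein of the small-subunit head, rose from 7138, 7967 and 6868 TPM to 20199, 19484 and 23734, by 1.53 ± 0.12 (4.6e-13), and RpL6 rose by 1.31 ± 0.10 (5.7e-13).

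Among members with named roles, RpL40 rose by 1.17, RpS3 by 1.10, RpLP1 by 1.08, RpS6 by 0.83 and RpS27A by 0.50 in wild-type pool 1. RpLP0 (0.14, adjusted p = 0.26), RpLP2 (0.13, 0.42), RpL41 (0.23, 0.22) and RpL3 (-0.13, 0.51) did not pass the test. Large-subunit members numbered 32 rising and 6 falling of 51, and small-subunit members 21 and 2 of 34.

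The members that fell in wild-type pool 1 were few and included RpLP0-like and RpS15Ab, both rare paralogs. RpLP0-like fell by 1.24 ± 0.18 (adjusted p = 1.8e-07) and RpS15Ab by 0.49 ± 0.16 (0.0053). RpL39, which lies along the exit tunnel of the large subunit, had 4434, 4562 and 5555 TPM at 0-1h and 2528, 2187 and 1566 at 2-3h, without overlap, a fall of 1.23 ± 0.27 (1.0e-04). RpL10Ab fell by 0.57 ± 0.20 (0.011) and RpL34a by 0.32 ± 0.14 (0.031), while RpL34b rose by 0.81 ± 0.11. Under the median-of-ratios scaling these 5 values turned above 0, RpLP0-like to 0.39 and RpL39 to 0.48, below the 2.10 of the median member. For RpL39 that value missed the test (SE 0.35, limma adjusted p = 0.21).

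In pool 3 RpLP0-like, RpS15Ab and RpL34a, which fell in wild-type pool 1, went the other way in wild type. RpL7-like rose most in both genotypes, by 0.99 ± 0.11 (adjusted p = 2.3e-09) in wild type and by 0.97 in orb2-delta-zz, from 129, 143 and 154 TPM to 304, 259 and 283 in wild type. RpLP0-like rose by 0.67 ± 0.18 (0.0013) and 0.65, and RpS15Ab by 0.63 ± 0.16 and 0.46. RpL34a rose by 0.70 ± 0.14 in wild type. RpL32 rose by 0.81 ± 0.12 and RpL27 by 0.70 in wild type, and RpL32 by 0.55 in orb2-delta-zz. The fall that passed in wild type was RpLP0, by 0.34 ± 0.12 (0.011), and those in orb2-delta-zz were RpLP0 by 0.38, RpL5 by 0.29 and RpL7 by 0.20.

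**Figure D4:**
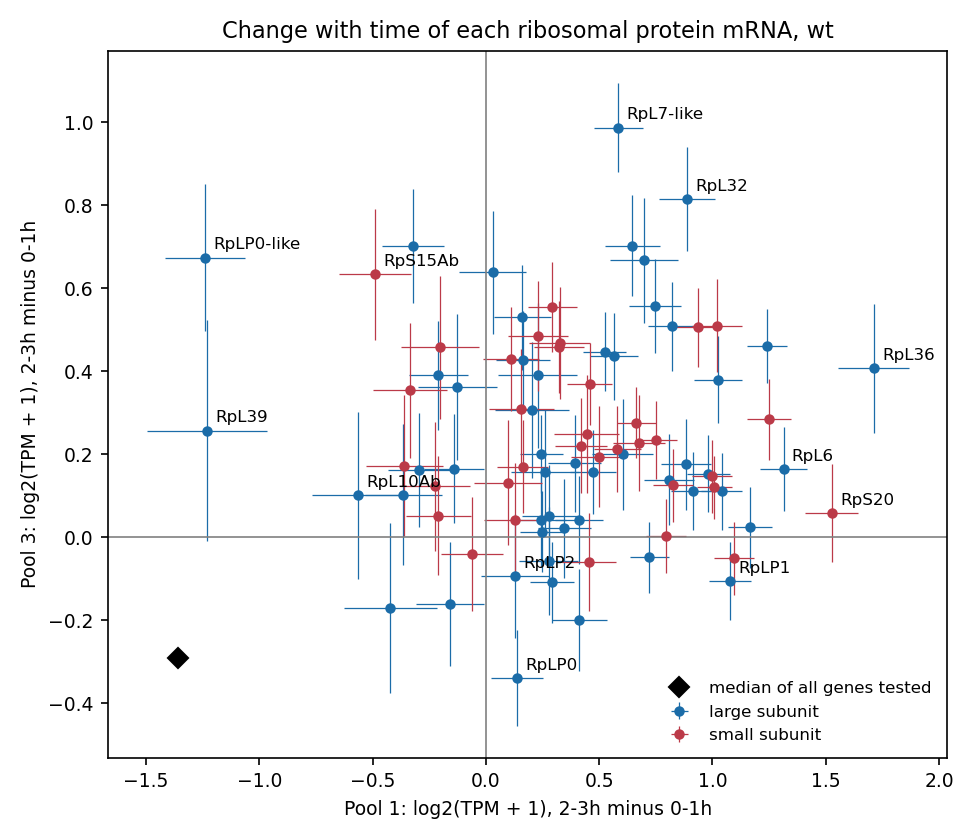
Wild-type change in log2(TPM + 1), 2-3h minus 0-1h, in pool 1 (horizontal axis) and pool 3 (vertical axis) for the 85 members tested, with SE bars; the diamond is the median of all genes. RpL36 at 1.71 and RpS20 at 1.53 lie to the right, RpL39 at -1.23 and RpLP0-like at -1.24 to the left, and the median of all genes at -1.36 and -0.29.

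Lists of related genes, followed the same way, gave other counts. Of 71 mitochondrial ribosomal protein mRNAs, 70 fell and 0 rose in wild-type pool 1 (median -2.31), and their share of TPM there went from 0.58% to 0.13%. Of 26 biogenesis factors 22 fell and 3 rose (median -1.65), and of 36 translation factors 15 rose and 15 fell (median 0.10). Both sta and Rack1 rose (median 0.83). In wild-type pool 3, 14 mitochondrial ribosomal protein mRNAs rose and 20 fell, 12 biogenesis factors rose and 6 fell, and 13 translation factors rose and 9 fell.

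The change with time differed between the genotypes for 6 of 85 members in pool 1, where 14.6% of all genes were called, and for 0 of 85 in pool 3 (unadjusted p under 0.05 for 1), where 10.6% were. In pool 1 the count was 2 without the gradients high in older-embryo markers, and with 1 gradient left out it ran from 1 (without orb2-delta-zz 0-1h replicate 2) to 9 (without orb2-delta-zz 0-1h replicate 1). RpLP2 rose more in orb2-delta-zz, by 0.94 ± 0.15 (adjusted p = 1.3e-06) from 4456, 5045 and 4787 TPM to 8346, 9296 and 9861. In wild type it went from 2938, 2954 and 2972 to 3444, 3302 and 2970, and the difference between genotypes was 0.81 ± 0.21 (0.010). It was 0.77 (0.064) without the gradients high in older-embryo markers and 0.57 (0.16) under the median-of-ratios scaling.

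The other 5 called members rose less in orb2-delta-zz. RpS20 went from 7610, 8562 and 7942 TPM to 14638, 15800 and 15950 there, so that wild type was the higher of the genotypes at 2-3h without overlap, a difference in change of -0.58 ± 0.17 (adjusted p = 0.018). RpL28 (-0.43 ± 0.15, 0.049), RpL40 (-0.43 ± 0.14, 0.036) and RpL35 (-0.37 ± 0.13, 0.044), of the large subunit, were among them. The median over the members was -0.02 in pool 1 and -0.13 in pool 3, where 83 of 85 lay below 0, and 0.15 and 0.13 over all genes.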

How the data were processed

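The members and gene lists were chosen with earlier results of these data known. Per the submitters' processing notes, the authors used Salmon 1.9.1, DESeq2 1.42.1 and Trim Galore 0.6.5 on stranded, rRNA-depleted libraries; no genome build is given in the sources used here. The authors deposited normalized counts (a signal per gene, scaled separately per time) and TPM. For each gene, counts divided by TPM gave 1 constant times a library factor (SD of log2 0.0058), which differed between pools of a gradient by 0.84 to 2.66 (log2), so pool differences are relative to all genes. Whole reads could not be recovered, so no counting intervals are given.

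Symbols came from Ensembl release 115. Group means were fitted with limma 3.58.1 (trend; R 4.3.3) on log2(value + 1): per time on 12 libraries for genes with a mean of at least 10, or over all 36 libraries on TPM for time. Tables used Python 3.11.15. Tested on simulated data (pool 1 genotype contrast, 200 of 7533, 8294 and 9554 genes changed), changes of 1 on the log2 scale were called in 78%, 60% and 46% at 0-1h, 1-2h and 2-3h, and changes of 2 in 87%, 87% and 83%.

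Named genes were all paralog family members, the up to 3 highest and lowest called members of each contrast, the 3 highest and lowest by level and by pool ratio, and RpS6, RpS3, RpL3, RpS27A, RpL40, RpL41, RpLP1 and RpLP2; RpL31, RpL37A and RpS26 in the genotype range were named after their values were seen. The values of 1 member are not reported here. Pools 1 and 3 of a replicate, which come from 1 gradient, deviated together (correlation 0.12 to 0.83, over 0.1 in 18 of 18), so gradient is a block in an alternative fit. Between genotypes the replicate number was the block. Same-numbered libraries deviated together in pool 1 at 0-1h and 2-3h (0.15 to 0.63, 3 of 3 pairs each), and over all comparisons their correlations ran from -0.74 to 0.76.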

Additional observations from a re-analysis of the deposited data

Results flagged for a closer look

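The change from 0-1h to 2-3h in pool 1 differed between the genotypes, in a test of the difference itself, for 6 members (limma, adjusted p under 0.05). RpLP2 had a difference of 0.81, orb2-delta-zz above wild type. RpS20 had -0.58, RpL28 -0.43, RpL40 -0.43 and RpL35 -0.37, orb2-delta-zz below wild type. Early zygotic markers also differed between the genotypes at every time, and maternal markers did so at 2-3h. The part of embryo stage in these differences was not tested. No group had enough libraries for the check of a single library far from the others.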

How the results depend on the processing

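Of 270 results for single genes, 266 kept direction and call with the replicate block, 268 with a pseudocount of 10, 268 without a filter, 258 under median-of-ratios scaling and 176 of 192 on log2(TPM + 1), as did 2457 of 2556 fits that left out 1 replicate. Where a direction or call changed, the cause was not tested.

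The members called by genotype at 0-1h in pool 1 (0) were 1 under median-of-ratios scaling, 3 on log2(TPM + 1), 4 with the replicate block, 4 without the gradients high in older-embryo markers (an alternative chosen after seeing the data), and 0 to 4 with 1 replicate left out (4 without orb2-delta-zz replicate 1). In pool 3 (0) they were 1 on log2(TPM + 1) and 3 with the block. At 2-3h in pool 1 (1) they were 2 without a filter, 7 (3 higher and 4 lower) on log2(TPM + 1), 5 with the block, 2 without those gradients, and 1 to 4 with 1 replicate left out (4 without wild-type replicate 2). In pool 3 (1) they were 2 without a filter, 6 on log2(TPM + 1), 5 with the block, 2 in a fit of the 6 libraries compared, and 0 to 4 with 1 replicate left out (0 without wild-type replicate 1 or orb2-delta-zz replicates 1 or 3). The interaction at 2-3h (0) gave 2 on log2(TPM + 1) and 1 with the block. Shares of all genes called are given for the main fits only. Same-numbered libraries of the genotypes correlated over 0.1 in all 3 pairs of pool 1 at 0-1h (0.15 to 0.24) and 2-3h (0.22 to 0.63). Pool 3 at 2-3h had 0.76, 0.74 and -0.0075. Over all comparisons 10 of 18 pairs were over 0.1, with a range of -0.74 to 0.76. Whether same-numbered libraries of the genotypes are pairs cannot be told from these values. Of the pool differences, the gradient block changed the count for orb2-delta-zz at 2-3h, from 86 to 87. With the replicate number as a block the time counts went from 61 to 58 in wild-type pool 1, from 26 to 25 in orb2-delta-zz pool 3, and from 6 to 8 for the genotype difference in pool 1.

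Over time, wild-type pool 3 (32) gave 73 under median-of-ratios scaling, and orb2-delta-zz pool 3 (26) gave 14 without those gradients and 12 to 30 with 1 replicate left out (12 without 0-1h replicate 2, 16 without 0-1h replicate 3, 15 without 2-3h replicate 1 and 16 without 2-3h replicate 3). The genotype difference over time in pool 1 (6) gave 3 with a pseudocount of 10, 2 without those gradients and 1 to 9 with 1 replicate left out; it was 1 without orb2-delta-zz 0-1h replicate 2, 2 without orb2-delta-zz 0-1h replicate 3 or wild-type 2-3h replicate 1 or 3, and 3 without orb2-delta-zz 2-3h replicate 2 or 3.

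On log2(TPM + 1) the pool difference turned for RpL24-like to 0.60, 0.58 and 0.87 in wild type and 0.64, 0.68 and 0.72 in orb2-delta-zz, for RpL3 to 0.14 (wild type 2-3h) and for RpS19b to 0.31 and 0.72; the RpLP2 interaction at 0-1h was 0.0090, and -0.24 to 0.041 with 1 replicate left out. Under median-of-ratios scaling the time change turned for RpL10Ab (1.14), RpL34a (1.38), RpL39 (0.48), RpLP0-like (0.39) and RpS15Ab (1.14) in wild-type pool 1, RpLP0 (0.093) in wild-type pool 3 and RpL7 (0.075) in orb2-delta-zz pool 3.

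Genes at 0 in any library of a time are outside its tables.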
